A study of Mus musculus with 12 samples.

Results

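Tet1 and Tet3 are 2 of the 3 mouse genes that encode TET dioxygenases, and their RNA was followed through reprogramming of mouse fibroblasts by Oct4 and Tet1. The members are the probe sets that the array's annotation assigns to Tet1 or Tet3. This gave 2 probe sets, 1 for each gene, among 10360 probe sets and 9539 genes with 1 probe set kept per gene. The study profiled starting fibroblasts, cells under reprogramming, reprogrammed iPS cells and ES cells, with 3 Affymetrix arrays for each of the 4 groups. Fibroblasts were at passage 3, with a background written OG2-GFP/Rosa26-M2rtTA for replicate 1, and with M3rtTA and M4rtTA in the same place for replicates 2 and 3. Day-1 cells were fibroblasts taken from mice that had been derived from such iPS cells (OG2-GFP/Rosa26-M2rtTA), at passage 3, kept for 1 day with doxycycline in ES medium, which turns on the introduced factors through the rtTA protein. The iPS cells (OG2-GFP/Rosa26-M2rtTA) were a single line at passage 10 induced with Oct4 and Tet1, and R1, a line of strain 129, supplied the ES cells at passage 20. Both pluripotent lines grew on feeder fibroblasts whose division had been stopped, in medium with LIF, and a plating step to clear feeders is described for ES cells. Day-1 cells and fibroblasts differ in doxycycline, medium and source together, and iPS and ES cells differ in strain, line and passage together. Since the labels do not state separate cultures for the arrays of a group, the spread behind each p-value is that between these samples and may be technical.

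TET enzymes use iron and 2-oxoglutarate to oxidise the methyl group of methylated cytosine in DNA, first to hydroxymethylcytosine and then to forms that base excision repair can replace with plain cytosine. In mouse ES cells Tet1 and Tet2 are the family members known for high expression, and Tet1 sits at CpG-rich promoters. Tet3 is best known as the maternal enzyme that oxidises the paternal genome of the zygote, and it is also expressed in many somatic cells.

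The regulatory sequence just upstream of each gene is shown because the genes changed in opposite directions between fibroblasts and pluripotent cells. RefSeq (GRCm38.p6) gave a start for both genes, and the 250 bases before it are printed on the coding strand, the minus strand of chromosome 10 for Tet1 (chr10:62887325-62887574) and of chromosome 6 for Tet3 (chr6:83441679-83441928). Capitals mark matches on either strand to the octamer bound by Oct4-type factors (ATGCAAAT), the GC box (GGGCGG), the CCAAT box (CCAAT) and the E-box (CACGTG), and no matches overlap.
Tet1: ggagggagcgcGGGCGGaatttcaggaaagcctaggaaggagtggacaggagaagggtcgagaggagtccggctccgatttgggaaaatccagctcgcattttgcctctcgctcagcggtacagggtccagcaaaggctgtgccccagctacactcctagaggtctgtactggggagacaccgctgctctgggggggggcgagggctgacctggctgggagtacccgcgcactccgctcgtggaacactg
Tet3: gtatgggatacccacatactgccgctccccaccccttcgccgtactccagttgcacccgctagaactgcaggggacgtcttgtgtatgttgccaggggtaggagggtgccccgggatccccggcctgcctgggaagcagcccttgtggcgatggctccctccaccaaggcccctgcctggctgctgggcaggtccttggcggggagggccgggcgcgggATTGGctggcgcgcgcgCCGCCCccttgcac
The Tet1 window holds 1 GC box, and the Tet3 window holds 1 GC box and 1 CCAAT box. Neither window holds the octamer or the E-box letters. Of 32851 mouse promoter windows of the same length, 32.7% hold the GC box, 33.8% the CCAAT box, 1.6% the octamer and 6.0% the E-box. The Tet1 window has 15 CpG dinucleotides and 62.8% G or C, and the Tet3 window has 17 CpG dinucleotides and 69.6% G or C, against a median of 6 CpG dinucleotides over all windows. Of all windows, 27.3% have at least as many CpG dinucleotides as Tet1 and 23.5% at least as many as Tet3. These letters describe 1 annotated start per gene, and the arrays do not show which start was used.

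Tet1 had log2 values of 6.59, 6.57 and 6.87 on the fibroblast arrays, 7.47, 7.47 and 7.45 on the day-1 arrays, 10.27, 10.17 and 10.33 on the iPS arrays and 11.38, 11.26 and 11.45 on the ES arrays. No 2 groups overlapped, and the level was lowest in fibroblasts, next in day-1 cells, higher in the iPS line and highest in the ES line. The mean was 6.68 ± 0.17 for fibroblasts, 7.46 ± 0.02 for day-1 cells, 10.25 ± 0.08 for the iPS line and 11.36 ± 0.10 for the ES line (SD, n = 3 each). The third fibroblast array lay above the other 2 and gave that group the widest spread. The sources used here do not state which isoform the probe set reads, nor if it reads introduced or endogenous Tet1 transcripts.

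Tet3 had log2 values of 7.74, 7.85 and 7.67 on the fibroblast arrays, 7.77, 7.78 and 8.02 on the day-1 arrays, 6.59, 5.96 and 6.35 on the iPS arrays and 6.19, 6.20 and 6.35 on the ES arrays. Fibroblasts and day-1 cells overlapped at the high end, iPS and ES cells overlapped at the low end, and every array of the first pair lay above every array of the second. The mean was 7.75 ± 0.09 for fibroblasts, 7.86 ± 0.14 for day-1 cells, 6.30 ± 0.32 for the iPS line and 6.25 ± 0.09 for the ES line (SD, n = 3 each). The iPS arrays had the widest spread of the 4 groups, with the second array lowest. Fibroblast means of the pluripotency genes Nanog (6.12) and Lin28a (6.23) lay near these low Tet3 means, while the lowest value in the data was 2.43. Whether low values of a probe set stood above background was not tested. That limit applies to the Tet3 overlap of iPS and ES cells. It also applies to folds that rest on low Tet3 values or on Tet1 in fibroblasts.

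**Figure D1:**
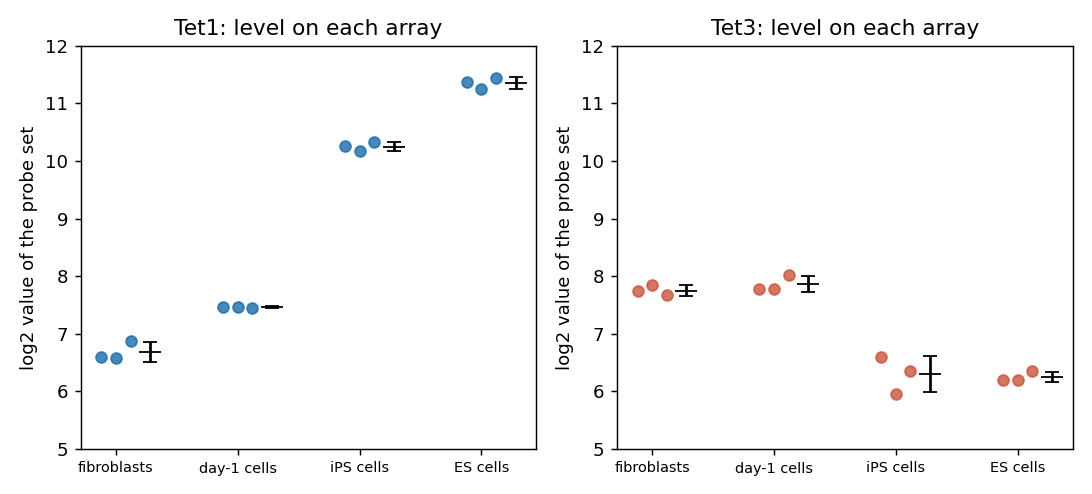
Level of Tet1 (left) and Tet3 (right) on each of the 12 arrays, as the log2 value of the probe set, with groups along the x axis. Points are single arrays and the bar beside them is the group mean with its SD (n = 3). Tet1 lies between 6.57 and 6.87 in fibroblasts and between 11.26 and 11.45 in ES cells, whereas Tet3 is at or above 7.67 in fibroblasts and day-1 cells and at or below 6.59 in iPS and ES cells.

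Day-1 cells were compared with fibroblasts, which differ from them in doxycycline, medium and source together. The part of induction in this contrast cannot be told apart. Tet1 was 1.72-fold higher in day-1 cells, or 0.79 ± 0.09 on the log2 scale (SE; limma adjusted p = 8.4e-06, 95% interval 0.60 to 0.98). That fell short of a call, for which 2 conditions were set, a change of at least 2-fold (1 on the log2 scale) and limma's adjusted p below 0.05. Every day-1 array lay above every fibroblast array, with a gap of 0.57 between the nearest 2, and without the third fibroblast array the difference was 0.88. Tet3 differed by 0.10 ± 0.13 (adjusted p = 0.53), and its interval of -0.18 to 0.39 lay within a 2-fold change either way. By limma 0 of the 2 genes were called, while 7.79% of all genes were called, 3.46% higher and 4.33% lower. An unadjusted p below 0.05 was found for 1 of the 2 and for 61.5% of all genes. Of all genes, 57.1% passed the adjusted p alone. The other induced factor gene, Pou5f1, which encodes Oct4, lay between 11.73 and 11.85 in day-1 cells, against 4.91 to 5.24 in fibroblasts. On the log2 scale the day-1 mean of Pou5f1 lay 97% of the way from its fibroblast mean to its iPS mean, and that of Tet1 22%. The sources used here do not state if either probe set reads introduced or endogenous transcripts. These shares therefore do not compare the induction of the 2 factors. Among 21 measured fibroblast markers, 3 were lower in day-1 cells and 18 were not called, and the log2 of their summed level was 16.17 to 16.21 in day-1 cells and 16.35 to 16.48 in fibroblasts. Among 12 macrophage markers, 3 were lower and 1 higher, with a summed log2 level of 11.00 to 11.20 in day-1 cells and 11.44 to 11.71 in fibroblasts. The most abundant markers weigh most in such a sum. Over the 12 macrophage markers the median difference was -0.03, against 0.05 for all genes. With an unadjusted limma p below 0.05, 4 of them were higher and 5 lower. The part of these other cell types in the Tet1 difference was not tested, and in bulk RNA fewer cells of a type and less RNA per cell cannot be told apart.

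In iPS cells against fibroblasts, Tet1 rose and Tet3 fell. Tet1 was 11.9-fold higher (log2 difference 3.58 ± 0.09, limma adjusted p = 8.4e-13), and its nearest iPS and fibroblast arrays were 3.30 apart. Tet3 was 2.74-fold lower in iPS cells (-1.45 ± 0.13, adjusted p = 1.7e-07), with a gap of 1.08 between the groups. Both genes were called, where 51.3% of the whole table was called (21.8% higher, 29.6% lower). The median over all genes was -0.35 here and moved with the scaling. With arrays centred on a common median Tet3 differed by -1.21 and Tet1 by 3.82, and after quantile normalization by -1.31 and 3.71. Fibroblast markers were lower in iPS cells in 13 of 21 cases and not called in 8, and 20 of 20 pluripotency markers were higher, beside the same shares of the table.

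ES cells against fibroblasts gave the same directions in an established line, measured against the same 3 fibroblast arrays. Tet1 was 25.7-fold higher in ES cells (4.68 ± 0.09, limma adjusted p = 8.4e-14), and Tet3 was 2.84-fold lower (-1.51 ± 0.13, adjusted p = 1.1e-07). Both were called, where 55.6% of the whole table was called (23.4% higher, 32.1% lower), and the median over all genes was again -0.35. With centred arrays Tet3 differed by -1.18 and Tet1 by 5.01.

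Against day-1 cells, Tet1 again rose and Tet3 again fell in both pluripotent lines. In iPS cells Tet1 was 6.91-fold higher (2.79 ± 0.09, limma adjusted p = 1.0e-11) and Tet3 2.94-fold lower (-1.56 ± 0.13, adjusted p = 9.8e-08), where 44.2% of the whole table was called (17.6% higher, 26.6% lower). In ES cells Tet1 was 14.9-fold higher (3.90 ± 0.09, limma adjusted p = 4.3e-13) and Tet3 3.05-fold lower (-1.61 ± 0.13, adjusted p = 5.9e-08), where 49.9% of the whole table was called (20.4% higher, 29.5% lower). Both pairs share the day-1 arrays, and each gene's groups were apart by at least 1.18 on the log2 scale in both.

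Set against the established ES line, the reprogrammed iPS line had less Tet1, and Tet3 did not pass. Tet1 was 2.15-fold lower in iPS cells (-1.11 ± 0.09, limma adjusted p = 5.0e-07), and every iPS array lay below every ES array by at least 0.93. The interval of this difference, -1.30 to -0.92, includes the 2-fold minimum, and limma's treat, which tests for a change beyond 2-fold, gave an adjusted p of 1 for it. Tet3 differed by 0.05 ± 0.13 (adjusted p = 0.75, interval -0.23 to 0.34), and the sign turned with centred arrays (-0.03) and without the first iPS array (-0.09). Of the 2 genes 1 was called, where 6.90% of the whole table was called (4.44% higher, 2.45% lower). Fibroblast markers were higher in iPS cells in 8 of 21 cases and lower in 1, Dcn, and the log2 of their summed level was 14.94 to 15.00 in iPS cells and 13.57 to 13.91 in ES cells. The part of cells other than iPS cells in the lower Tet1 value was not tested. Of 20 pluripotency markers, 1 was higher, 1 was lower and 18 were not called, with a summed log2 level of 15.62 to 15.66 in iPS cells and 15.78 to 15.83 in ES cells.

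**Figure D2:**
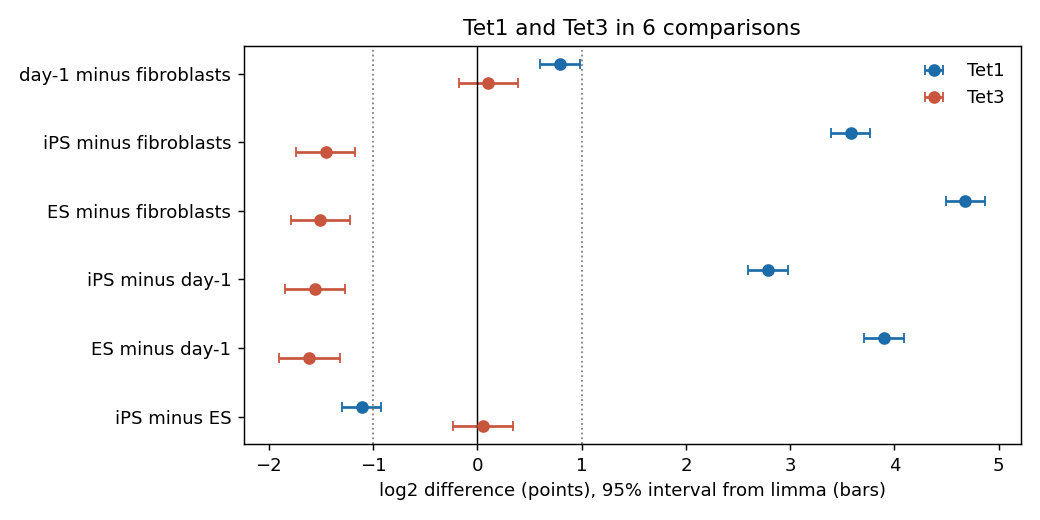
Log2 difference of Tet1 and Tet3 in the 6 comparisons, with the first named group minus the second on the x axis. Points are limma estimates, bars are 95% intervals, and dotted lines mark a 2-fold change. Tet1 reaches 4.68 in ES cells against fibroblasts, Tet3 lies between -1.61 and -1.45 in the 4 comparisons of pluripotent with fibroblast-derived cells, and its intervals include 0 in the other 2.

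A measure that no constant added to an array can alter is the difference between the 2 log2 values on the same array. The Tet1 minus Tet3 difference was 5.03 higher in iPS cells than in fibroblasts, a 32.6-fold change of the ratio, and 6.19 higher in ES cells than in fibroblasts, a 73.0-fold change. In day-1 cells it was 0.68 higher than in fibroblasts, with group SDs of 0.16 in day-1 cells and 0.25 in fibroblasts (n = 3 each) and a gap of 0.22 between the groups. In iPS cells it was 1.16 lower than in ES cells, with SDs of 0.27 in iPS cells and 0.06 in ES cells. These values show unequal change of the 2 genes and say nothing of either level alone.

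The third family member, Tet2, rose like Tet1 in both pluripotent lines and, at day 1, lay below its fibroblast values without being called. Its mean was 7.80 ± 0.24 for fibroblasts, 6.92 ± 0.14 for day-1 cells, 9.14 ± 0.26 for the iPS line and 10.03 ± 0.22 for the ES line (SD, n = 3 each). Tet2 was 2.54-fold higher in iPS cells than in fibroblasts (1.35 ± 0.15, limma adjusted p = 1.5e-06) and 4.71-fold higher in ES cells than in fibroblasts (2.23 ± 0.15, adjusted p = 7.1e-09). In day-1 cells against fibroblasts Tet2 differed by -0.88 ± 0.15 (adjusted p = 0.00032) and was not called, and no day-1 array reached the lowest fibroblast array. The Tet1 minus Tet2 difference within an array was 1.66 higher in day-1 cells than in fibroblasts. In iPS cells against ES cells Tet2 differed by -0.89 ± 0.15 (adjusted p = 0.00028) and was not called, and there the Tet1 minus Tet2 difference changed by -0.22 with overlapping groups.

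The genes with the profile most like a member's were found by Pearson's r of log2 values over the 12 arrays, a description of arrays that fall into 4 groups. For Tet1 they were Dnajc7, a co-chaperone, Atad5, which unloads the replication clamp PCNA from DNA, Pdcd11, a ribosomal RNA maturation factor, Snrnp200, a spliceosomal RNA helicase, and the chromodomain gene Cdyl2, each with an r of 0.998. Atad5 came nearest in size, with a mean of 5.79 for fibroblasts, 6.32 for day-1 cells, 8.57 for the iPS line and 9.32 for the ES line. The most opposed profiles were those of the dynein chain gene Dynlrb1, Tmed4, Cyba, a subunit of NADPH oxidase, Rabac1 and Chp1, with r of -0.998 to -0.997. For Tet3 the most alike were the BBSome gene Bbs7 (0.991), Chac2, which degrades glutathione (0.989), Hgs of the endosomal sorting machinery (0.988), Ergic1 (0.988) and the phosphatase gene Dusp7 (0.987). Bbs7 followed Tet3 closely in size, with a mean of 7.55 for fibroblasts, 7.60 for day-1 cells, 6.18 for the iPS line and 6.03 for the ES line. The most opposed to Tet3 were the centrosome gene Cep63 (-0.988), Cnot1, the scaffold of a deadenylase complex (-0.986), the small nucleolar RNA gene Snord52, Tbc1d8 and the calmodulin gene Calm2 (-0.985 each). Such likeness is common in these data, since 1457 of the other 9538 genes had an r above 0.95 with Tet1 and 1427 with Tet3. Opposed profiles are common too, with 1831 genes at an r below -0.95 for Tet1 and 837 for Tet3. Tet1 and Tet3 themselves had an r of -0.945.

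**Figure D3:**
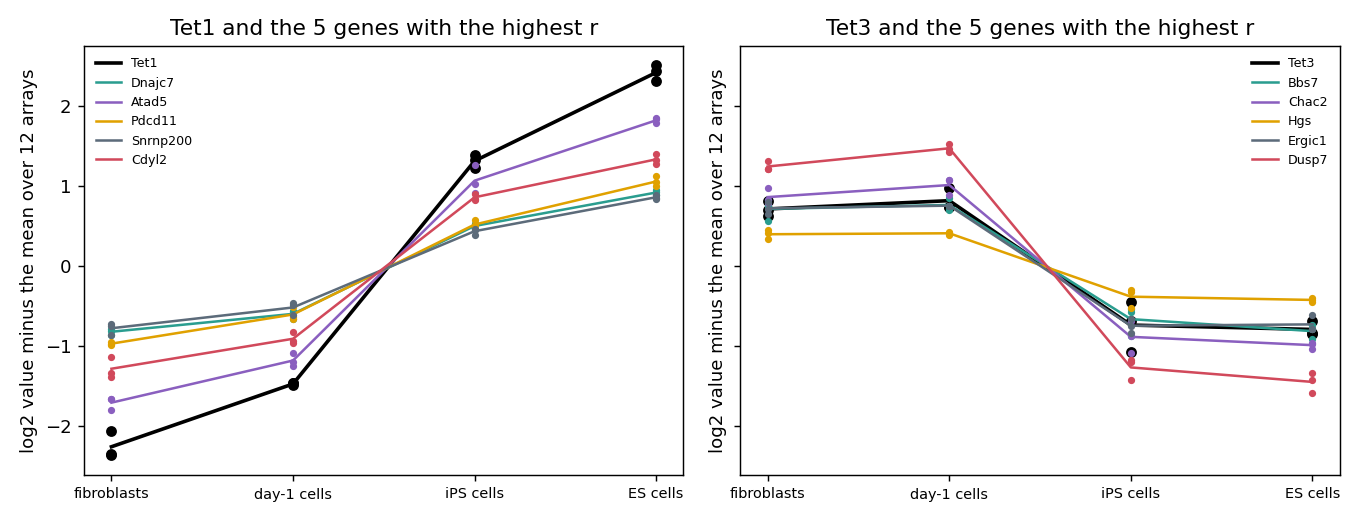
Profiles of Tet1 (left) and Tet3 (right), in black, with those of the 5 genes most alike, as log2 values minus the gene's mean over 12 arrays. Points are single arrays and lines join group means. The Tet1 profile climbs at each step from fibroblasts to ES cells, and the Tet3 profile has 1 step, between day-1 cells and iPS cells.

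Around the TET enzymes, the genes that write DNA methylation were higher in iPS cells than in fibroblasts, as Tet1 was. All 7 measured writers of 8 on the list rose in that comparison, where 21.8% of the whole table was called higher, with a median difference of 3.50 against -0.35 for all genes. They included Dnmt3l, the cofactor of de novo methylation (4.71 ± 0.10), Hells, a remodeller needed for methylation (4.38 ± 0.13), Uhrf1, which brings the maintenance enzyme to replicated DNA (3.71 ± 0.12), and the de novo enzyme gene Dnmt3b (3.50 ± 0.17), all by limma as above. At day 1, Uhrf1 was the 1 writer of 7 called (1.38 ± 0.12), where 3.46% of the table was called higher, and Dnmt3l differed by -0.46. Between iPS and ES cells 0 of 7 writers were called by limma and 5 had an unadjusted p below 0.05, near the shares of the whole table, 6.90% and 62.1%, and the differences ran from -0.96 for Dnmt3a to 0.21 for Dmap1.

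Of the repair genes that act after TET oxidation, 11 of 18 were measured, and Tdg, which removes the oxidised bases, was not analysed here. In iPS cells against fibroblasts 7 rose, where 21.8% of the table was called higher, and 4 were not called, led by the ligase gene Lig1 (3.37 ± 0.10), Parp1 (3.37 ± 0.06), the uracil glycosylase gene Ung (3.09 ± 0.12) and the endonuclease gene Apex1 (2.20 ± 0.08). At day 1, Lig1 (1.14 ± 0.10) and the glycosylase gene Neil3 (1.02 ± 0.11) rose and Gadd45a, reported to promote demethylation, fell (-1.17 ± 0.13), 3 of 11 genes against 7.79% of the table. Between iPS and ES cells the 3 of 11 genes called, against 6.90% of the table, were all of the Gadd45 family, with Gadd45g (1.26 ± 0.10) and Gadd45b (1.09 ± 0.17) higher and Gadd45a lower (-1.14 ± 0.13) in the iPS line. Of 21 measured partners and recruiters of TET enzymes, 16 rose in iPS cells against fibroblasts, again beside 21.8% of the table, among them the Tet1 partner Nanog (6.47 ± 0.10). Members such as Nanog, Esrrb, Sall4 and Lin28a are also pluripotency markers, of which 20 of 20 were higher there. The partner count thus partly repeats the marker count. At day 1 the single called partner of 21 was Cxxc5 (1.13 ± 0.07), a CXXC zinc finger gene of the type that can bind unmethylated CpG, which is no more than the 7.79% called over the table.

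The supply of 2-oxoglutarate and the other enzymes that use it did not move as 1 group. Of 16 measured supply genes, 4 rose and 1 fell in iPS cells against fibroblasts, where 21.8% of the table was called higher and 29.6% lower, with the mitochondrial isocitrate dehydrogenase gene Idh2 highest (1.60 ± 0.07) and the transaminase gene Got2 lowest (-1.09 ± 0.07). At day 1, Idh2 (1.25 ± 0.07) and Phgdh of serine synthesis (1.14 ± 0.10) rose and Ogdhl, related to the enzyme that consumes 2-oxoglutarate, fell (-1.19 ± 0.07), 3 of 16 genes against 7.79% of the table. Compared with the ES line, the iPS line was higher in Gpt2 (1.23 ± 0.08), Idh2 (1.16 ± 0.07) and Idh1 (1.04 ± 0.07). It was lower in the succinate dehydrogenase gene Sdhc (-1.14 ± 0.07). These were 4 of 16 genes, against 6.90% of the table. A link between them and the Tet1 level was not tested. Of 37 other measured dioxygenases of this class, 8 rose and 14 fell in iPS cells against fibroblasts, beside 21.8% and 29.6% of the table, and the median difference of -0.53 lay near the -0.35 of all genes. Those that fell most were the collagen-modifying enzyme genes P4ha3 (-3.99 ± 0.09), P4ha2 (-2.62 ± 0.09), Plod1 (-2.40) and P3h3 (-2.35). At day 1, 5 of the 37 fell, where 4.33% of the table was called lower, and 32 were not called, led by Egln3, an oxygen-sensing prolyl hydroxylase gene (-2.39 ± 0.13).

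**Figure D4:**
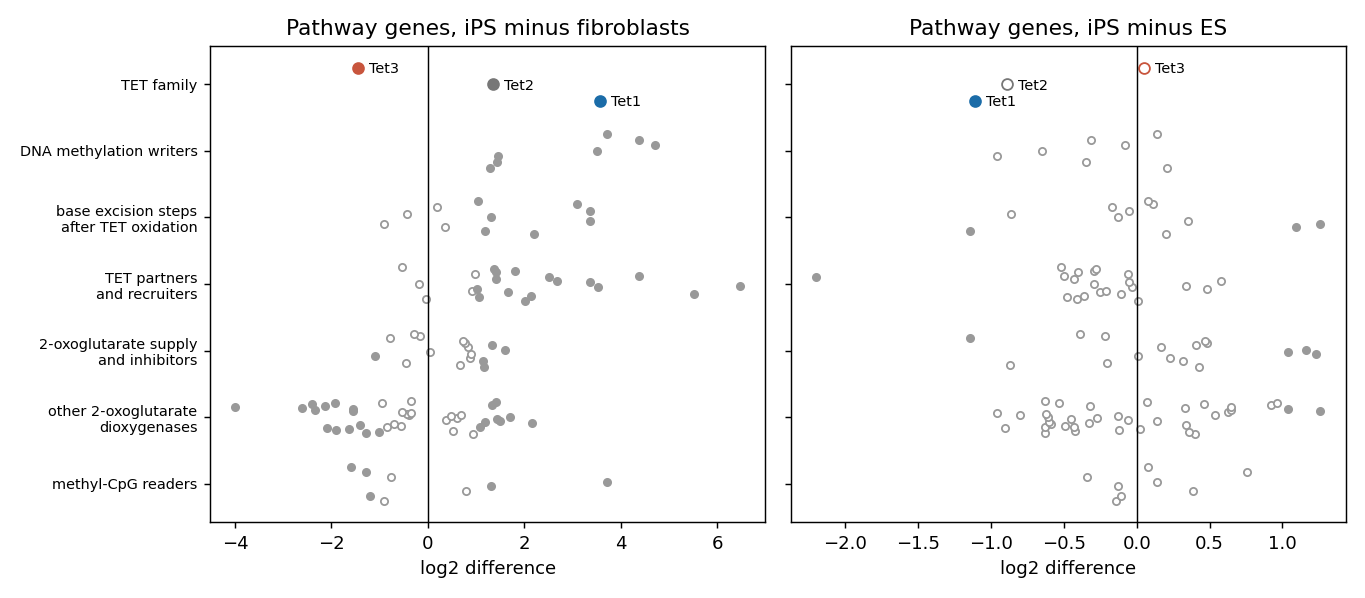
Log2 differences of the measured genes of 7 lists in iPS cells minus fibroblasts (left) and iPS cells minus ES cells (right), with 1 row per list and 1 point per gene. Filled points are called by limma, open points are not, the TET genes are named, and points are spread vertically for legibility. All 7 methylation writers lie on the Tet1 side on the left, between 1.30 and 4.71, while Tet3 lies at -1.45.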

How the data were processed

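The table used holds the log2 values that the authors deposited per probe set for the 12 arrays. Total RNA was labelled with biotin by an Affymetrix kit, per the labels' protocols, while the sources used here do not give the summarisation or normalization. The log2 scale was read from the range, 2.43 to 13.64. Array medians are not centred, at 8.25 to 8.29 in fibroblasts and day-1 cells, 7.98 to 8.06 in iPS cells and 7.89 to 7.98 in ES cells. Arrays of a group correlated with r between 0.988 and 0.997. Every probe set varies by at least 0.51 between arrays, so shares of genes refer to a table of varying genes, and list members absent from it were not analysed here. Of the probe sets, 9542 had 1 symbol in the platform annotation, 344 several and 474 none, and the first kind was used, with the highest mean kept for the 3 genes with several probe sets.

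Differences were fitted in R 4.3.3 with limma 3.58.1, with group means over all 12 arrays, eBayes and Benjamini-Hochberg adjustment over 9539 genes in each of 6 comparisons. Standard errors, intervals and every adjusted p in the text come from these fits, and precision is limited by the number of arrays, with a standard error of 0.094 for the median gene. The steps were tested on simulated data. Tet1 and Tet3 and the gene lists were chosen with earlier results of these data known. Named genes were the members, the 5 most alike and 5 most opposed genes per member without unnamed gene models, and up to 4 called members per list and comparison by size, of which part is printed. Tet2, Dnmt3a, Dmap1, Dcn and Tdg were named beyond that rule, as a family member, as ends of a range, as an exception and as an absent enzyme. Replicate numbers did not pair the arrays, since 0 of 18 same-numbered pairs had deviations that correlated over 0.1 (-0.208 to 0.064). Alternatives were other scalings, probe set rules, filters, variance models, call rules, a replicate block and leaving out each array. Plots were made in Python 3.11.15 with matplotlib 3.10.9.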

Additional observations from a re-analysis of the deposited data

How the results depend on the processing

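Each of the 12 differences of Tet1 and Tet3 was recomputed under 23 alternatives. For 9 of them direction and call held in all 23. Tet1 in day-1 cells against fibroblasts (0.69 to 0.88 over all alternatives) became a call with no fold minimum (0.79, limma adjusted p = 8.4e-06). Tet1 in iPS against ES cells (-1.19 to -1.06) ended as a call with treat (-1.11, adjusted p = 1). Tet3 in iPS against ES cells, not called anywhere, turned sign with arrays centred on the common median (-0.03) and ranged from -0.09 to 0.22 when an array was left out. Under the replicate block, the Tet1 difference of day-1 cells from fibroblasts was 0.79 (adjusted p = 1.3e-05) and no call of Tet1 or Tet3 changed. Counts of called genes depended on the fold rule by construction. With no fold minimum they were 5449, 8985, 9050, 8851, 8914 and 5502 for day-1, iPS and ES cells against fibroblasts, iPS and ES cells against day-1 cells, and iPS against ES cells. With treat, 315 genes were called in day-1 cells against fibroblasts and 226 in iPS against ES cells. Called members of the pathway lists were counted without Tet1 and Tet3. By the main rule they numbered 14 in day-1 cells against fibroblasts, 77 in iPS against day-1 cells and 21 in iPS against ES cells. The shares of all genes called were 7.79%, 44.2% and 6.90%. The lists overlap, and the number of different measured genes on them is not given here. The counts of list members thus show how calls depend on the settings, and cannot be read as shares. With no fold minimum the members numbered 72, 123 and 98 in the same order, beside 5449, 8851 and 5502 of all 9539 genes. With treat they numbered 5 in the first and 6 in the last of these comparisons, beside 315 and 226 of all genes. Without the dimmest 25% of genes, 12 list members and 493 of all genes were called in iPS against ES cells, a setting that tests fewer genes.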

Other observations

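Some genes reported as targets of Tet1 in ES cells were called between iPS and ES cells, in both directions. Of 16 measured targets, 2 were higher in iPS cells than in ES cells, the Nodal pathway genes Lefty2 (1.81 ± 0.23) and Nodal (1.09 ± 0.11), and 1 was lower, Zfp42 (-2.77 ± 0.16, limma adjusted p = 4.6e-08). Of all genes tested, 4.44% were called higher and 2.45% lower, and the list median was 0.17, against 0.01 over all genes. In day-1 cells against fibroblasts the 1 target of 16 called was Pou5f1, itself induced, where 7.79% of the table was called.

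Germline genes that DNA methylation silences in somatic cells stood lower in iPS cells than in ES cells in 5 of 13 measured cases and higher in 1. Mael, of the piRNA pathway, differed by -1.96 ± 0.10, Sycp3 of the synaptonemal complex by -1.74 ± 0.13 and the meiotic gene Tex11 by -1.44 ± 0.23, while Hormad2 differed by 1.41 ± 0.12. Beside these counts, 2.45% of all genes were lower and 4.44% higher. In day-1 cells against fibroblasts limma called 0 of the 13, where 7.79% of all genes were called. Among the 13, 1 had an unadjusted p under 0.05, against 61.5% of all genes. Their mean log2 value within an array was low, between 4.31 and 4.35 for fibroblasts and between 4.33 and 4.4 for day-1 cells. Array medians there were 8.25 to 8.29. Whether such low values stood above background was not tested. The day-1 counts therefore cannot tell germline genes that did not change from genes too low to read. A link between these genes and the TET levels was not tested.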
